A study of Homo sapiens with 6 samples.

Results

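Transcripts of 10 human genes that make, break down or sense prostaglandins were followed in 2 related cell lines of human lung adenocarcinoma. The genes were PLA2G4A, PTGS1, PTGS2, PTGES, PTGES2, PTGES3, PTGIS, HPGD, PTGER2 and PTGER4. They were chosen by name, and every probe set annotated to 1 of them and to no other gene was taken, which gave 21 probe sets of the 41091 with a single gene symbol, for 10 of 19775 genes. CL1-5 is the highly invasive line and CL1-0 the poorly invasive line, and both come from the parental line CL1. Both were grown without treatment in RPMI medium with 10% fetal bovine serum and 1% penicillin and streptomycin. Total RNA of 3 biological repeats of CL1-5 and 3 of CL1-0 was hybridised to 6 one-colour oligonucleotide arrays. Each group is 1 cell line, so every difference below is between these lines and cannot be told apart from other features in which they differ.

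Prostaglandins are short-lived lipid signals. Cytosolic phospholipase A2, the product of PLA2G4A, releases arachidonic acid from membranes, and the cyclooxygenases PTGS1 (COX-1, widely constitutive) and PTGS2 (COX-2, inducible by cytokines and growth factors) turn it into prostaglandin H2. Terminal enzymes convert that intermediate, PTGES, PTGES2 and PTGES3 into prostaglandin E2 and PTGIS into prostacyclin. The dehydrogenase HPGD inactivates prostaglandin E2, and its receptors EP2 (PTGER2) and EP4 (PTGER4) raise cyclic AMP. In lung cancer the pathway is best known for raised PTGS2 and PTGES and for loss of HPGD.

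PTGS2 and PLA2G4A had the largest differences of the 10 genes and ran in opposite directions. They are neighbours on chromosome 1, with 0 protein-coding genes and 1 long noncoding RNA, PACERR, between them in the RefSeq order. Their promoters are shown because the pair carries the main contrast. Each window runs from 250 bases before the gene start to 50 after it, in GRCh38.p14, as RefSeq gives it. The PTGS2 window is chr1:186680374-186680673 on the minus strand and the PLA2G4A window is chr1:186828699-186828998 on the plus strand. Capitals mark matches, on either strand, to motifs searched because they are known in the PTGS2 promoter, plus a GC box. The TATA box was searched as TATAAA. The motif of C/EBP factors, which act on PTGS2 in inflammation, was TTNCGCAA. The core of the cyclic AMP response element was CGTCA. The GC box, found in many promoters without a TATA box, was GGGCGG.
PTGS2: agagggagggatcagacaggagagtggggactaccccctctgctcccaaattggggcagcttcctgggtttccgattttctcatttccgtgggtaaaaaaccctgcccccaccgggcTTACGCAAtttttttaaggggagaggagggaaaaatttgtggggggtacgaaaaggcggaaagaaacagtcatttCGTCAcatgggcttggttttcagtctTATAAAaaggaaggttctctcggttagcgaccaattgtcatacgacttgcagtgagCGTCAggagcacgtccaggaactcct
PLA2G4A: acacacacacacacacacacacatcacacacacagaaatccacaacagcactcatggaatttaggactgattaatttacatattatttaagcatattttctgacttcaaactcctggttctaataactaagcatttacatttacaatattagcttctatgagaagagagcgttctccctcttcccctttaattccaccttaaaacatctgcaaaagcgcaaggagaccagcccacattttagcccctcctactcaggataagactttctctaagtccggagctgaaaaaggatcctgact
The PTGS2 window held the C/EBP motif 133 bases, the cyclic AMP motif 58 bases and the TATA box 32 bases before the gene start, each counted to the first base of the match, and a further cyclic AMP motif after the start. No motif overlapped another. The PLA2G4A window held none of these letters. Among 35116 promoter windows of the same length, 0.891% held the C/EBP motif, 11.5% the TATA box, 24.6% the cyclic AMP motif and 45.0% the GC box. These matches describe the sequence only. RefSeq promoter windows were matched for 9 of the 10 genes.

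The 6 arrays were even in overall signal, with medians between 30.2 and 30.9 units. Precision is limited by the number of arrays, 3 a line. The 40th percentile of each array, 19.5 to 20.3 units, stood in for background. Probe sets above it on at least 3 arrays entered the test, and differences are given as log2(signal + 6.85), CL1-5 minus CL1-0, a scale that understates changes of dim genes. Of the 21 probe sets 10 passed this filter, 6 of them above the percentile on all 6 arrays, and 10 of the others were above it on 0 arrays. The 10 that passed stand for 8 genes, while HPGD and PTGER2 had none. Of 9 lung epithelial markers 8 passed the filter, and their signals summed to 4703 to 5505 units in CL1-5 and 450 to 514 in CL1-0. Marker sums here and below take the probe set of highest mean signal of each matched gene, passed or not. Values of single markers are from the fitted probe set, or the brightest where none passed, so they need not add up to the sums. Most of the CL1-5 sum was KRT18, at 4222 ± 417 units in CL1-5 and 46.5 ± 7.85 in CL1-0 (SD, n = 3). At these probe sets EPCAM, KRT19, CDH1, NKX2-1, SFTPB and NAPSA averaged at most 47.9 units in either line. The lung markers NKX2-1, SFTPB and NAPSA were thus dim in both there, though other probe sets may be brighter. The epithelial markers did not share a direction. By limma KRT18 and KRT8 were higher in CL1-5 (log2 difference 6.31 and 3.32, adjusted p = 1.9e-09 and 6.9e-09). EPCAM was lower (-1.07, adjusted p = 1.6e-05), at 10.3 units in CL1-5 and 29.3 in CL1-0, and passed the filter only through CL1-0. KRT7, CDH1, NKX2-1, SFTPB and NAPSA did not pass the test. Among markers of other cell types, PTPRC, CD14 (leukocytes), CDH5 (endothelium) and LUM (fibroblasts) were below the percentile on every array, whereas CD3E, CSF1R, PECAM1, COL1A1, COL1A2 and DCN were above it on all 6. PECAM1 was higher in CL1-5, at 115 ± 4.24 units against 49.8 ± 6.13 in CL1-0 (log2 difference 1.11, adjusted p = 3.5e-05 by limma), and the other 5 did not pass the test. Summed marker signals were 77.9 to 86.5 units in CL1-5 and 78.9 to 84.4 in CL1-0 for leukocytes, 140 to 154 and 67.7 to 85.5 in the same order for endothelium, and 241 to 256 and 228 to 274 for fibroblasts. As a measure of RNA quality, the 3′ to 5′ log2 ratio at ACTB was 0.31 to 0.91 in CL1-5 and 0.44 to 1.17 in CL1-0, and the part of RNA quality in the results was not tested.

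**Figure D1:**
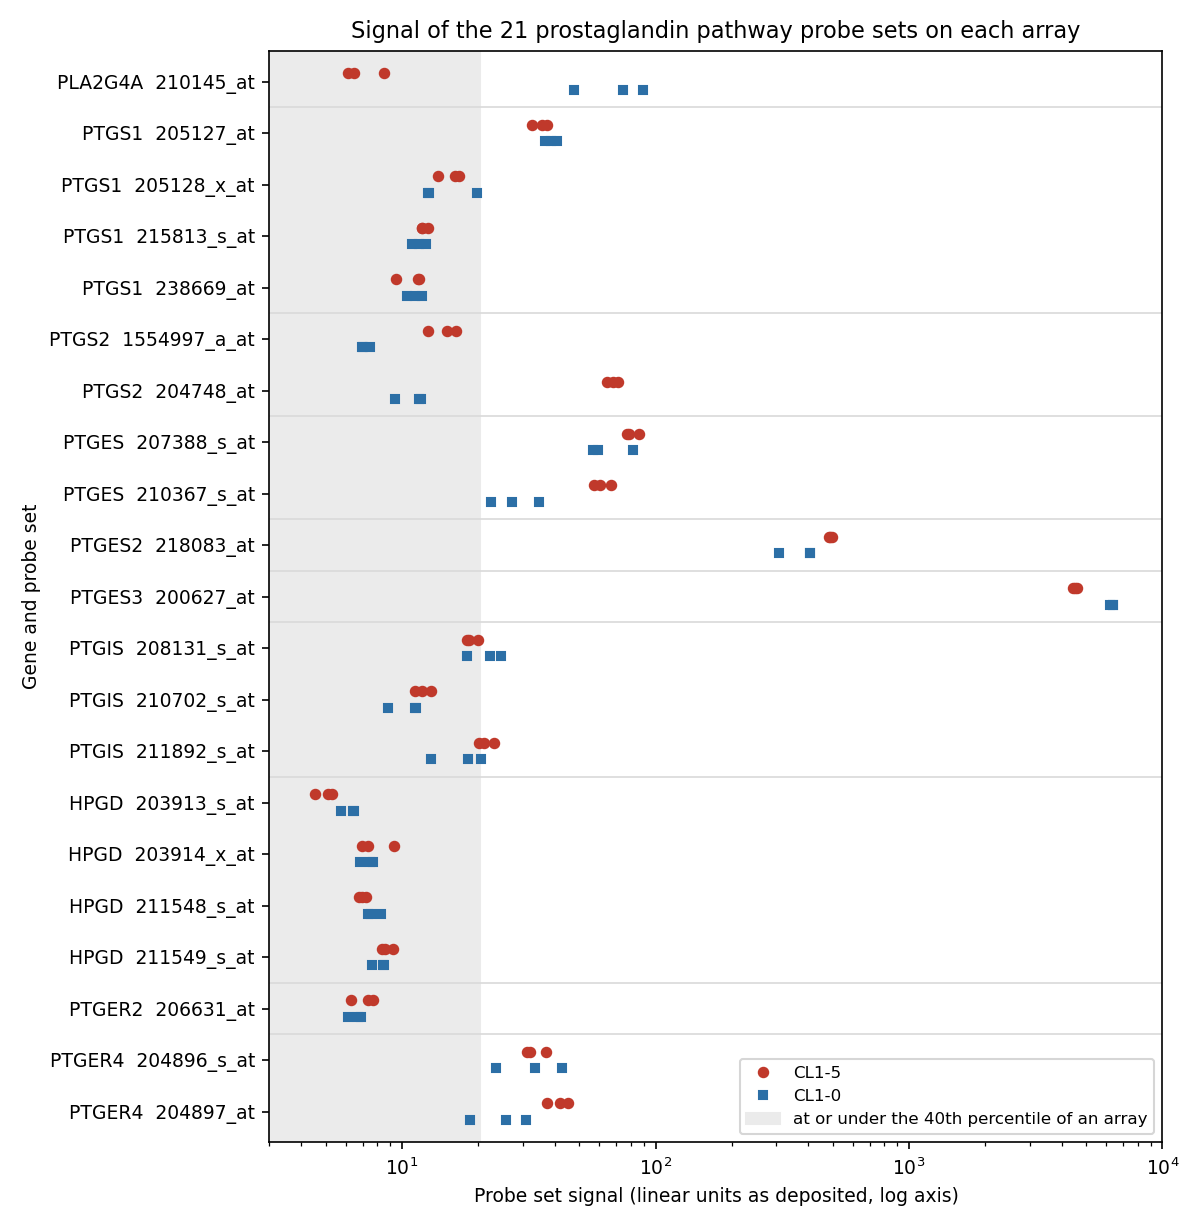
Signal on each array (log axis, units as deposited) for the 21 probe sets, with CL1-5 as circles above CL1-0 as squares and n = 3 arrays per line. Shading marks signals up to 20.3 units, the highest 40th percentile of any array. PTGS2 204748_at leaves the shaded range only in CL1-5 and PLA2G4A 210145_at only in CL1-0.

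Setting CL1-5 against CL1-0 shows which steps of the pathway differ in transcript level between lines of common origin and unlike invasiveness. PTGS2 was higher and PLA2G4A lower in CL1-5, so the inducible cyclooxygenase was above background in CL1-5 alone and the phospholipase in CL1-0 alone. The prostaglandin E synthase PTGES2 was slightly higher and PTGES3 lower, and PTGES and PTGER4 were each higher through 1 of 2 probe sets. PTGS1 and PTGIS did not pass, and HPGD and PTGER2 were under the percentile on every array of both lines. By gene, 2 of 8 tested were called higher and 2 lower by limma with Benjamini-Hochberg adjustment over all genes (adjusted p under 0.05), against 23.3% higher and 28.3% lower, or 51.6% in either direction, among all 14828 genes tested. By probe set, 4 of 10 were called higher and 2 lower, against 21.2% and 25.6%, or 46.9% in either direction, of 28152 probe sets. The share of genes called is thus near that of all genes, and PTGS2 and PLA2G4A passed the filter only through the line in which they are bright. Member values below come from the fit over probe sets, with n = 3 arrays per line unless arrays or repeats are said to be left out. Values given for a gene with a changed representative come from the fit by gene.

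At the first step, PLA2G4A 210145_at had 6.15, 8.46 and 6.47 units in CL1-5 repeats 1, 2 and 3, against 74.7, 47.8 and 89.4 units in CL1-0 repeats 1, 2 and 3. The lines did not overlap, and all CL1-5 arrays lay under the 40th percentile, so the fold is a bound. The probe set entered the test only through CL1-0, so the lack of overlap follows from the filter and the p-value is not independent of it. The transcript was at least 3.43-fold lower in CL1-5 (log2 difference -2.45, SE 0.20, adjusted p = 3.4e-05 by limma). Since RNA came from whole cultures, fewer expressing cells and less RNA per cell cannot be told apart. PLA2G4A is represented by a single probe set, so no other probe set on the arrays checks this value. The spread in CL1-0 was wide, at 70.6 ± 21.1 units (SD), with repeat 2 the lowest.

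The cyclooxygenases differed in what they showed. PTGS2 204748_at had 68.2, 64.6 and 70.8 units in CL1-5, against 11.7, 11.9 and 9.37 units in CL1-0. All CL1-5 arrays were well above the percentile and all CL1-0 arrays under it, without overlap. This probe set entered the test only through CL1-5, so the lack of overlap follows from the filter and the p-value is not independent of it. PTGS2 was at least 3.40-fold higher in CL1-5 (log2 difference 2.07, SE 0.10, adjusted p = 1.7e-06 by limma). The other PTGS2 probe set, 1554997_a_at, was under the percentile on all 6 arrays, with 15.1, 16.4 and 12.6 units in CL1-5 and 7.45, 6.98 and 6.93 units in CL1-0. It failed the filter and has no fold. Its lines did not overlap, and with no filter its log2 difference of 0.62 had an adjusted p of 0.00024 by limma. Both lines are below background there, so it is not a separate check of 204748_at.

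PTGS1 was close to level between the lines. Its probe set 205127_at had 32.7, 37.3 and 35.8 units in CL1-5 and 36.5, 40.9 and 38.6 units in CL1-0, which overlap. The log2 difference was -0.11, with a 95% confidence interval of -0.33 to 0.10 and an adjusted p of 0.37 by limma, so a change of the size seen for PTGS2 lies outside the interval. The other 3 PTGS1 probe sets were under the percentile on all arrays. They spanned 9.47 to 16.7 units in CL1-5 and 10.5 to 19.7 units in CL1-0.

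Among the prostaglandin E synthases, PTGES encodes the inducible microsomal enzyme that is coupled to PTGS2, and its 2 probe sets did not give the same call. Probe set 210367_s_at had 57.3, 60.5 and 66.5 units in CL1-5, against 22.4, 34.7 and 27.3 units in CL1-0, with no overlap. It was higher in CL1-5 (log2 difference 0.98, SE 0.14, adjusted p = 0.00079 by limma). Probe set 207388_s_at had 77.0, 86.3 and 78.9 units in CL1-5 and 81.5, 59.2 and 56.7 units in CL1-0. There CL1-0 repeat 1 lay within the CL1-5 range, and the log2 difference of 0.28 (95% confidence interval -0.05 to 0.62) did not pass (adjusted p = 0.15). It passed without CL1-0 repeat 1 (0.43, adjusted p = 0.020) and with array weights (0.42, adjusted p = 0.0031). Whether the 2 probe sets differ from each other was not tested. The second represents PTGES in the count by gene because it is the brighter, so the gene is not among those called.

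PTGES2, a membrane-associated prostaglandin E synthase, had 498, 487 and 482 units in CL1-5 and 407, 407 and 308 units in CL1-0 at 218083_at, its single probe set. The lines did not overlap, and CL1-0 repeat 3 stood below the other CL1-0 repeats. The log2 difference of 0.39 (SE 0.12) passed narrowly, with an adjusted p of 0.031 by limma. It missed the threshold without CL1-5 repeat 1, 2 or 3, with adjusted p of 0.087, 0.087 and 0.056. Repeats 1 and 2 alone gave a difference of 0.27 (adjusted p = 0.021), and repeat 3 alone gave 0.64.

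PTGES3, a co-chaperone of HSP90 that is also known as cytosolic prostaglandin E synthase, was bright in both lines. Its single probe set 200627_at had 4510, 4613 and 4418 units in CL1-5, against 6392, 6372 and 6213 units in CL1-0. The repeats were tight and the lines well separated, with means of 4514 ± 97.5 units in CL1-5 and 6325 ± 98.2 units in CL1-0 (SD, n = 3). PTGES3 was lower in CL1-5 by a small amount (log2 difference -0.49, SE 0.05, adjusted p = 0.00017 by limma). The terminal E synthases were thus not called in a common direction. RefSeq names 5 pseudogenes after PTGES3, and signal from such copies cannot be told apart from that of the gene here.

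PTGIS, prostacyclin synthase, lay near background in both lines. Of its 3 probe sets only 211892_s_at passed the filter, with 23.0, 20.1 and 21.1 units in CL1-5 and 18.3, 20.5 and 13.1 units in CL1-0. The lines overlapped and the log2 difference of 0.24 did not pass (95% confidence interval -0.06 to 0.53, adjusted p = 0.17 by limma). The other 2 probe sets spanned 11.2 to 19.9 units in CL1-5 and 8.84 to 24.6 units in CL1-0. With the filter on 2 arrays, 208131_s_at stood for the gene and the sign turned, at -0.15 (adjusted p = 0.30).

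HPGD, the enzyme that starts the breakdown of prostaglandin E2, was under the percentile on every array of both lines. Its 4 probe sets spanned 4.54 to 9.29 units in CL1-5 and 5.77 to 8.48 units in CL1-0. They did not share a direction. At 203913_s_at all CL1-5 arrays (5.29, 5.11 and 4.54 units) lay under all CL1-0 arrays (5.77, 6.42 and 6.48 units), and with no filter that probe set had a log2 difference of -0.14 and an adjusted p of 0.035 by limma. Both lines are below background there, so no fold is given. The other 3 did not pass with no filter, with log2 differences from -0.08 to 0.05.

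The receptors of prostaglandin E2 were dim. PTGER2 (EP2) was under the percentile on all 6 arrays, with 7.35, 6.28 and 7.68 units in CL1-5 and 6.68, 6.86 and 6.14 units in CL1-0, and was not tested. PTGER4 (EP4) had 2 probe sets of different behaviour. At 204897_at it had 42.1, 37.2 and 45.2 units in CL1-5, against 30.9, 18.5 and 25.7 units in CL1-0, with no overlap and 1 CL1-0 array under the percentile. That probe set was higher in CL1-5 (log2 difference 0.62, SE 0.15, adjusted p = 0.012 by limma).

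The other PTGER4 probe set, 204896_s_at, had 31.9, 36.8 and 31.2 units in CL1-5 and 23.4, 33.3 and 43.0 units in CL1-0. The CL1-0 arrays spanned the whole CL1-5 range, and the log2 difference of 0.03 did not pass (95% confidence interval -0.38 to 0.44, adjusted p = 0.91 by limma). Repeats 1 and 2 alone gave 0.24 at this probe set and repeat 3 alone gave -0.39, whereas 204897_at gave 0.59 and 0.68. It represents the gene in the count by gene, where PTGER4 is thus not called. Leaving out CL1-0 repeat 2 or 3 made 204897_at the representative and ended in a call by gene, at 0.46 (adjusted p = 0.019) and 0.64 (adjusted p = 0.013). RefSeq names 4 pseudogenes after PTGER4.

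**Figure D2:**
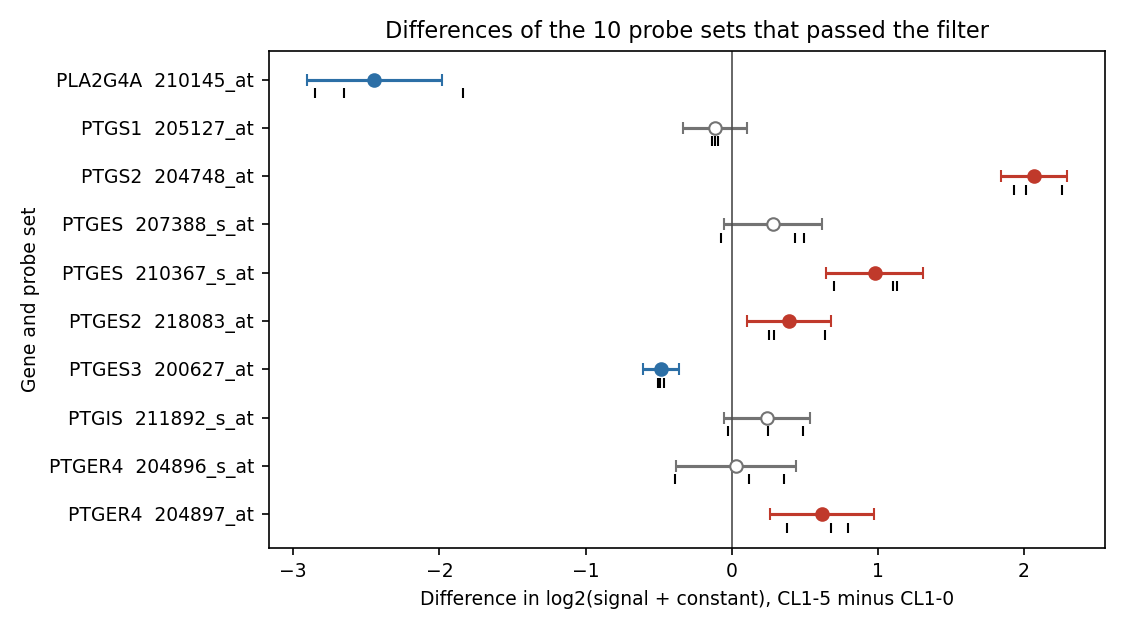
Difference in log2(signal + constant), CL1-5 minus CL1-0, for the 10 probe sets that passed the filter, with 95% confidence intervals from limma (n = 3 arrays per line) and a tick for the difference of each pair of same-numbered repeats. Filled red is higher and filled blue lower in CL1-5 at an adjusted p under 0.05, and open grey did not pass. PLA2G4A at -2.45 and PTGS2 at 2.07 lie farthest from 0.

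In total 6 of the 10 tested probe sets had lines that did not overlap, against 55.6% of all probe sets tested and 58.8% of all genes tested. PTGS2 204748_at and PLA2G4A are among the 6, but they entered the test only through the line in which they are bright. Their lack of overlap, and the sign of each pair of same-numbered repeats, thus follow from the filter. The values below describe the size of these differences only. PTGS2 204748_at differed by 2.02, 1.93 and 2.26 on the log2 scale in repeats 1, 2 and 3, and PLA2G4A by -2.65, -1.84 and -2.85. Leaving out any 1 array, with the filter on 2 arrays where it was needed to keep the probe set, moved PTGS2 between 2.00 and 2.11 and PLA2G4A between -2.68 and -2.27. Of the nearest protein-coding genes outside this pair, PDC and BRINP3, neither passed the filter.

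**Figure D3:**
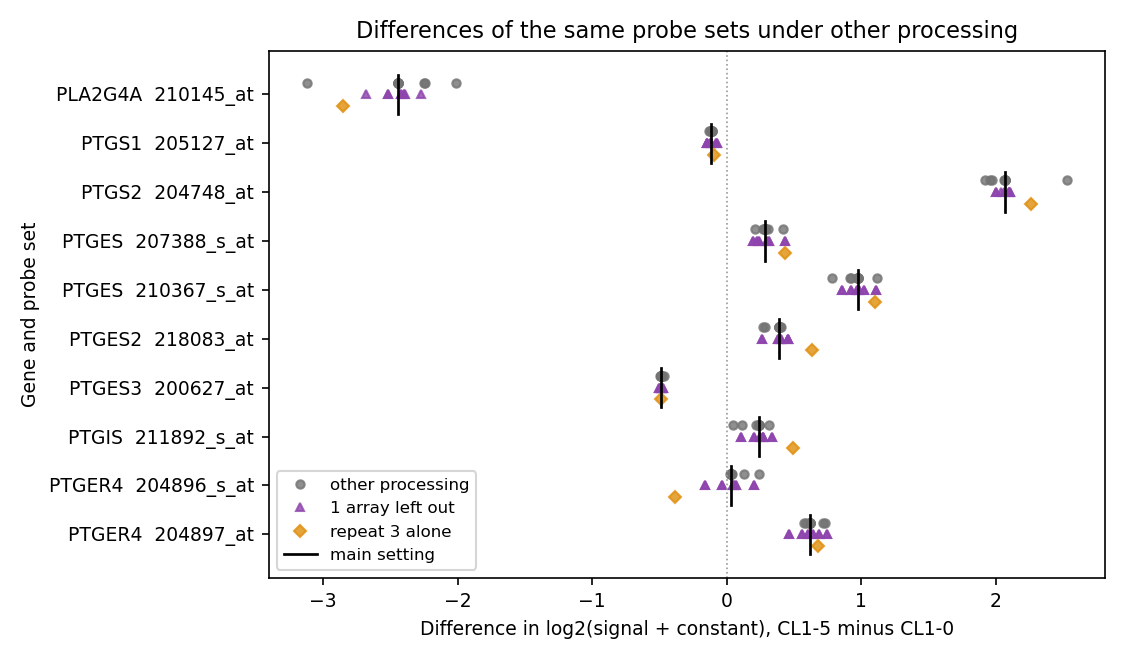
Difference in log2(signal + constant), CL1-5 minus CL1-0, of the same 10 probe sets in the main setting (black line), with other processing (grey circles), with 1 array left out (purple triangles) and in repeat 3 alone (orange diamonds, a value with no test). PTGS2 204748_at stays between 1.92 and 2.53, while PTGER4 204896_s_at lies on both sides of 0, from -0.39 to 0.24.

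The rest of the pathway was read through 8 lists of 111 genes, of which 104 were matched to the arrays and 88 tested by gene. They held 22 genes called higher and 16 called lower, or 43.2% of those tested, beside 51.6% of all genes. Of all genes tested 23.3% were called higher and 28.3% lower, with a median difference of -0.03. Each list count below stands beside those shares. Among 9 tested phospholipases A2 other than PLA2G4A, 2 rose and 1 fell, with a list median of -0.04. The lysosomal PLA2G15 averaged 120.0 ± 7.66 units in CL1-5 and 53.9 ± 7.85 in CL1-0 (SD, n = 3), a log2 difference of 1.07 (adjusted p = 8.5e-05 by limma). The cytosolic family member PLA2G4C was higher by 0.64 and the secreted PLA2G12A lower (-0.63).

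Of 6 other prostanoid synthases tested, 2 rose and 2 fell (median -0.16), against 23.3% and 28.3% of all genes. Thromboxane synthase TBXAS1 was higher by 0.77 and the carbonyl reductase CBR3 by 0.50. The prostaglandin F synthase AKR1C3 was lower, with 53.5 ± 9.45 units in CL1-5 and 165 ± 38.5 in CL1-0 (log2 difference -1.50, adjusted p = 9.5e-05 by limma), though its close paralogs may share signal. The prostaglandin D synthase PTGDS was lower (-0.46), at a probe set whose suffix marks possible cross-hybridisation.

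Receptors for other prostanoids gave no call, beside 51.6% of all genes called in either direction. Of 7 matched genes 4 were tested and 0 passed with limma, at adjusted p of 0.86 for the EP1 receptor PTGER1, 0.95 for the prostaglandin D2 receptor PTGDR2, 0.14 for the prostacyclin receptor PTGIR and 0.90 for the thromboxane receptor TBXA2R, and 0 of the 4 had an unadjusted p under 0.05. PTGIR averaged 153 ± 9.98 units in CL1-5 and 178 ± 16.4 in CL1-0, and TBXA2R 112 ± 26.5 and 113 ± 13.8 in the same order. The 10 probe sets of PTGER3 (EP3), 3 of PTGDR and 2 of PTGFR all failed the filter, with no signal above 13.5 units.

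Of the genes of transport and further breakdown, 4 of 8 tested were called higher and 1 lower (median 0.26), against 23.3% and 28.3% of all genes. The organic anion transporter SLCO4A1 had 292, 339 and 389 units in CL1-5, against 82.0, 71.4 and 78.1 units in CL1-0 (log2 difference 2.04, adjusted p = 1.5e-06 by limma). ABCC4, an export pump that carries prostaglandins out of cells, had 141, 137 and 134 units in CL1-5, against 453, 409 and 362 units in CL1-0 (log2 difference -1.52, adjusted p = 3.4e-06). The lines did not overlap for either. The reductases PTGR2 and PTGR3, which act on prostaglandin metabolites after HPGD, were higher by 0.66 and 0.60. For PTGR2 only 1 CL1-0 array was above the percentile.

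Genes that supply or recapture arachidonic acid had 4 of 14 tested members called higher and 1 lower, with a list median of 0.15. The shares of all genes were 23.3% and 28.3%. The monoacylglycerol lipase MGLL, which also yields arachidonic acid by a route that does not use phospholipase A2, had 995, 880 and 885 units in CL1-5, against 17.5, 23.7 and 19.6 units in CL1-0. The lines did not overlap (adjusted p = 3.3e-09 by limma). Only 1 CL1-0 array was above the percentile, so the fitted log2 difference of 5.10 is taken against signal near background and is not an exact size. The other probe set gave 4.14. The others called higher included the fatty acid carrier FABP5 (1.36) and the elongase ELOVL2 (0.60), and the acyl-CoA synthetase ACSL1 fell (-1.15).

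Of the lipoxygenase and leukotriene genes 2 of 8 tested rose and 1 fell (median 0.10), against 23.3% and 28.3% of all genes. The lipoxygenases ALOX5, ALOX12, ALOX12B, ALOX15 and ALOX15B all failed the filter. MGST2, a microsomal glutathione transferase that can make leukotriene C4, averaged 353 ± 32.9 units in CL1-5 and 40.2 ± 3.27 in CL1-0 (log2 difference 2.93, adjusted p = 6.6e-08 by limma). ALOX5AP, which presents arachidonic acid to ALOX5, was higher by 1.42. The leukotriene A4 hydrolase LTA4H was lower (-0.67).

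Known regulators of PTGS2 transcription and messenger decay moved both ways, with 6 of 18 tested genes higher and 3 lower (median 0.02). Among all genes 23.3% were higher and 28.3% lower. CEBPD, a C/EBP factor, averaged 1024 ± 35.6 units in CL1-5 and 159 ± 22.8 in CL1-0 (log2 difference 2.65, adjusted p = 1.4e-07 by limma). The decay factor ZFP36L1 (2.15) and the interleukin 1 receptor IL1R1 (0.97) were also higher. CELF2, an RNA-binding protein that holds PTGS2 messenger untranslated, had 19.1, 22.0 and 23.4 units in CL1-5, against 314, 325 and 253 units in CL1-0 (log2 difference -3.42, adjusted p = 5.7e-08). Only 2 CL1-5 arrays were above the percentile, so this difference is taken against signal near background and is not an exact size. The tested CELF2 probe sets ranged from -3.42 to -0.20. The stabilising factor ELAVL1 (-0.31) and the decay factor ZFP36L2 (-0.29) were lower, and neither call held throughout. At the probe set of highest variance ELAVL1 differed by -0.05 (adjusted p = 0.86) and ZFP36L2 by -0.38 (adjusted p = 0.07). The ZFP36L2 call was lost in 10 of 25 alternatives, among them leaving out CL1-0 repeat 1 or 2 or CL1-5 repeat 2 or 3, with adjusted p up to 0.12.

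Downstream of the EP receptors, the cyclic AMP list had 2 of 21 tested genes higher and 7 lower (median -0.12). Among all genes 23.3% were higher and 28.3% lower. The cyclic AMP phosphodiesterase PDE4D averaged 50.7 ± 6.02 units in CL1-5 and 883 ± 25.1 in CL1-0 (log2 difference -3.95, adjusted p = 8.0e-09 by limma), and all 6 of its tested probe sets were called lower. The protein kinase A regulatory subunit PRKAR2B was lower (-1.78) and the adenylyl cyclase ADCY7 higher (1.70). GNAS, the stimulatory G protein locus, was represented by 214157_at at -2.57, but 8 of its 10 tested probe sets were not called, so no change of the locus as a whole is shown. The catalytic subunit PRKACB was higher by 0.54, with 2 of its 3 tested probe sets called higher and 1 lower. Of the genes named in these lists, ELOVL2, IL1R1 and ADCY7 each had 2 tested probe sets of which 1 was called. CELF2 had 3 of 4 called lower, PTGR3 had 4 of 5 called higher and PTGDS had 2 of 3 called lower. ELAVL1 and ZFP36L2 each had only 1 of 4 called lower, with log2 differences from -0.31 to 0.27 and from -0.38 to 0.003.

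**Figure D4:**
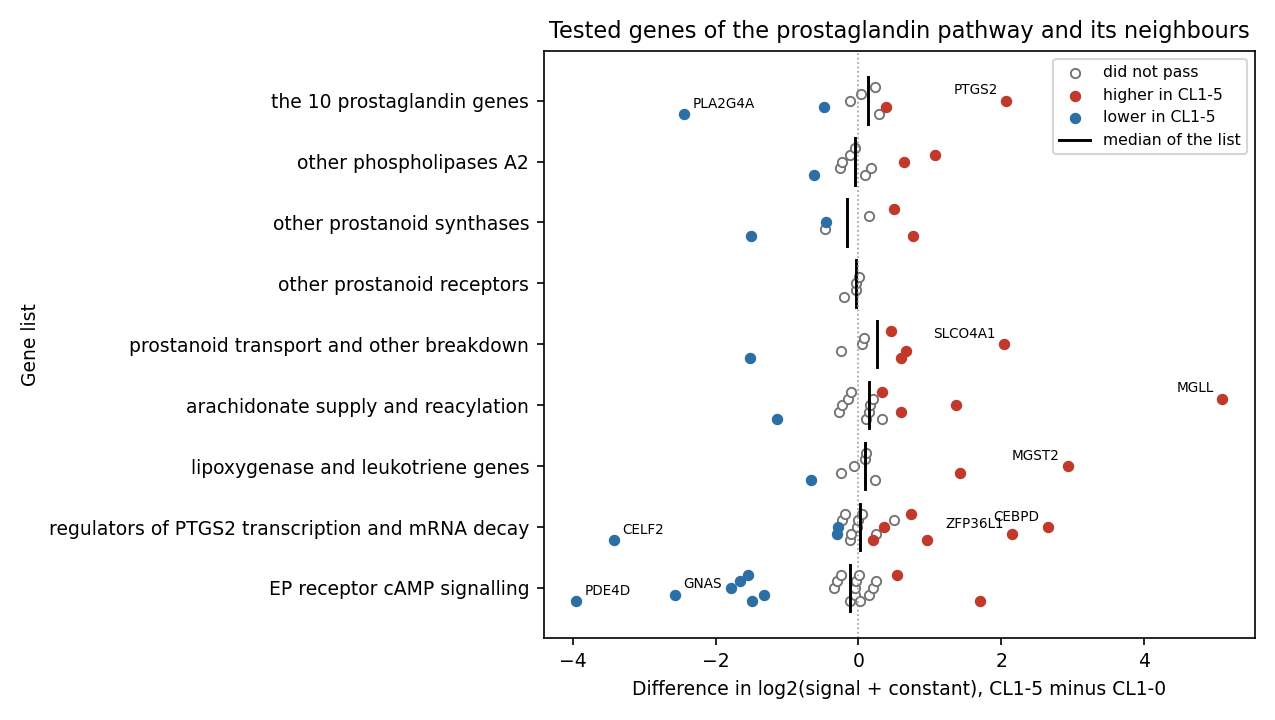
Difference in log2(signal + constant), CL1-5 minus CL1-0, of each tested gene in the 10 prostaglandin genes and in 8 related lists, by the fit with 1 probe set a gene (n = 3 arrays per line). Red points were called higher and blue points lower in CL1-5, open points did not pass, and a black bar gives each list's median, between -0.16 and 0.26. MGLL at 5.10, fitted against CL1-0 signal near background, and PDE4D at -3.95 are the outermost points.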

How the data were processed

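The deposited table holds 1 linear intensity per probe set and array, and no scaling was applied to it in the main fit. Per the submitters' processing notes MAS5 was used, and neither its version nor any later step is stated there. Detection calls were not used. Groups and repeat numbers come from the sample titles. Gene symbols come from the platform annotation, updated by gene identifier through RefSeq (GRCh38.p14). Left out were 5 probe sets annotated to another gene whose symbol is an older alias of a member.

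Values became log2(signal + 6.85), the constant being the lowest decile of the table. Probe sets above their array's 40th percentile on at least 3 of 6 arrays were fitted in R 4.3.3 with limma 3.58.1 (lmFit, eBayes with trend) and adjusted by Benjamini-Hochberg over all tested. By gene, the probe set of highest mean log2 signal was fitted, and those with an x suffix only where no other passed. The procedure was also run on simulated data with few changed genes and independent arrays. These data differ in both respects, so that run does not give the error rate here. Where all arrays of a line lay under the percentile, the fold is a bound, the bright line's mean log2 signal against, per array, the higher of percentile and signal.

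Deviations of same-numbered arrays from their line means correlated over genes (0.48, 0.28 and 0.65 for repeats 1, 2 and 3), which counts as pairing, although no label says what the numbers mark. The repeat number as a replicate block was an alternative fit, and so were other constants, filters, scalings and probe set choices, a prior without trend, array weights, a stricter threshold, repeats 1 and 2 alone and leaving out each array. No label says that repeats were separate cultures, so p-values measure the spread between these arrays. Members and lists were chosen with earlier results of these data known. The genes named were all members, up to 3 called genes per direction in each list and the other receptors.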

Additional observations from a re-analysis of the deposited data

How the results depend on the processing

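By gene, the call of PTGES3 kept its direction and stayed past the threshold under every alternative that tested it, with log2 differences of -0.50 to -0.47. PTGS2 and PLA2G4A also stayed past the threshold where they were tested, at 1.92 to 2.53 and -3.12 to -1.99. Both passed the filter of the main fit only through the line in which they are bright. Their direction there follows from the filter, and these ranges describe size only. The replicate block changed no member call, and it raised the list genes called to 52, against 38 without it, and all genes called to 9294, against 7644, so the shares of 43.2% and 51.6% hold for the fit without it. The PTGES2 adjusted p was 0.0010 in that fit. A filter on the mean over all arrays left 1 member gene called higher and 1 lower, and likewise 1 and 1 by probe set, because PTGS2, PLA2G4A, PTGER4 and PTGES 210367_s_at were then not tested. At an adjusted p under 0.01, 1 gene and 2 probe sets were called higher. Representing a gene by the probe set of highest variance or by the mean of its probe sets gave 4 genes called higher in both cases, with PTGES and PTGER4 added. Array weights raised the calls in the lists to 60, against 38 in the main setting. Leaving out 1 array gave 0 to 3 member genes higher and 1 to 2 lower, 2 to 5 member probe sets higher and 1 to 2 lower, 34 to 43 list genes, 6284 to 7677 genes and 10231 to 13235 probe sets called. With 3 arrays still required, leaving out a CL1-5 array dropped PTGS2 from the test and leaving out a CL1-0 array dropped PLA2G4A, by construction. With the filter eased to 2 arrays, 1 member gene was called higher without CL1-5 replicate 1 or 2.

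Differences that missed the threshold turned in sign as follows, and the cause was not tested beyond the change of probe set or array. PTGER4 at 204896_s_at, and as a gene, was -0.159 without CL1-0 replicate 1 and -0.0327 without CL1-5 replicate 2, within ranges over left-out arrays of -0.159 to 0.201 for the probe set and -0.159 to 0.641 for the gene. PTGIS as a gene was -0.146 without a filter or with a filter on 2 arrays, where 208131_s_at represented it, and with that filter -0.242, -0.135, -0.177 and -0.126 without CL1-0 replicate 1 and CL1-5 replicates 1, 2 and 3. PTGER1 was 0.175 with the mean filter or the probe set of highest variance, 0.0514 with the mean of its probe sets, 0.0618 in repeats 1 and 2, and 0.0280 and 0.0672 without CL1-0 replicate 2 and CL1-5 replicate 3 (range over left-out arrays -0.0979 to 0.0672). PTGDR2 was -0.0712 with array weights and -0.0245, -0.0463, -0.0231 and -0.0183 without CL1-0 replicates 1 and 3 and CL1-5 replicates 1 and 2 (range -0.0463 to 0.103). TBXA2R was 0.0482 and 0.114 without CL1-0 replicate 3 and CL1-5 replicate 1 (range -0.198 to 0.114). Signal near background limits PTGIS, PTGER4, PTGER2 and HPGD.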
